A study of Mus musculus with 6 samples.

Results

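Genes of fatty acid oxidation and the TCA cycle were examined in the embryonic mouse outflow tract (OFT), the vessel through which blood leaves the developing heart. The group holds 38 genes, listed by name for a role in fatty acid uptake, β-oxidation, pyruvate oxidation or the TCA cycle, or in their control, and found in the count table by Ensembl identifier. All 38 were among the 28777 genes of the table and among the 28157 that were tested, those with more than 5 reads over the libraries. The series compared bulk RNA of E13.5 OFTs between compound mutant embryos and littermates. The mutant label stands for *Notch1*+/-*; Nos3*-/-, germline knockout alleles carried by every cell, 1 for *Notch1* and both for *Nos3*. The wildtype label stands for littermates without either allele, and both strains were kept in a C57/BL6J background. Each group has 3 libraries and each library is a pool of 3 OFTs, cut below the conal cushions, so every value is an average over embryos and over all cell types of the piece. Total counts were 44387490, 43329291 and 34729103 in the libraries labelled wildtype (replicates 1, 2 and 3, always given in this order) and 38640033, 35551470 and 36917298 in those labelled mutant.

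Long-chain fatty acids are taken up, bound by carrier proteins and joined to coenzyme A, after which the carnitine shuttle moves them into mitochondria. There, β-oxidation shortens them step by step to acetyl-CoA, pyruvate dehydrogenase makes acetyl-CoA from glucose carbon, and the TCA cycle oxidises it and feeds electrons to the respiratory chain. Cardiac muscle is rich in mitochondria and gains the capacity to burn fatty acids as it matures, while the early embryonic heart relies more on glycolysis.

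Levels are in CPM, a gene's share of the counts of a library after TMM scaling in edgeR. Fold changes compare the mutant label with the wildtype label on the log2 scale, so that a negative value means lower under the mutant label. The quasi-likelihood test of edgeR was used, and a gene counted as called where its p, adjusted by Benjamini-Hochberg over all genes tested, did not exceed 0.05. Unadjusted p-values are from the same edgeR fit. An exact permutation test of 3 libraries against 3 cannot give a p under 0.1, so the separation of groups is described without one.

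The targeted genes were read first, as a check of the labels. *Nos3*, the endothelial nitric oxide synthase, had 31.8, 47.2 and 48.1 CPM in the libraries labelled wildtype and 22.1, 22 and 20.4 CPM in those labelled mutant (log2 fold change −0.98, adjusted p = 0.128 by edgeR), and so was lower without overlap but was not called by edgeR. DESeq2's Wald test called it (adjusted p = 9.42e-06). Reads of *Nos3* remained in every library labelled mutant (884, 824 and 769 counts), where the label gives both alleles as knocked out. The source of these reads was not tested. *Notch1* had 74.3, 88.2 and 83.6 CPM under the wildtype label and 155, 161 and 139 CPM under the mutant label. This was higher under the mutant label in every library (log2 fold change 0.89, adjusted p = 0.0313 by edgeR, called, and 6.44e-11 by DESeq2), which goes against the label of a heterozygote. The edgeR call was lost with the GC and length correction (log2 fold change 0.68, adjusted p = 0.0861), with the mean of the Myocardial markers as a covariate (0.84, adjusted p = 0.111) and in 5 of the 6 fits with a library left out, while the log2 fold change stayed between 0.68 and 0.99 in all fits. Because of the direction of *Notch1*, labels are used to name the groups and to give all directions below.

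Most of the 38 genes were lower under the mutant label, by a similar and modest amount. The median log2 fold change of the 38 was −0.42, beside 0.01 for all genes tested, and 36 genes had a value below 0. The exceptions were *Cpt1b* (0.25) and *Cpt1a* (0.01), and the sign of *Cpt1a* turned in 7 of the alternative fits, all within 0.10 of 0. None of the 38 was called by edgeR (0 genes), where 6 of all 28157 genes were called (0.0213%), while 32 had an unadjusted p under 0.05, all of them lower. Adjusted p-values of the 38 by edgeR ran from 0.181 to 0.963. Over all genes tested, 7.83% were lower with an unadjusted p under 0.05. DESeq2's Wald test called 10 of the 38, all lower, against 2.64% of all genes: *Fabp3*, *Acsl1*, *Etfa*, *Etfdh*, *Hadhb*, *Pdhb*, *Idh3a*, *Suclg1*, *Fh1* and *Mdh2*. In 19 of the 38, every library labelled mutant was below every library labelled wildtype, and the same held for 8.94% of all genes tested. Scarce genes are part of these shares. Of the 16655 genes that averaged 1 CPM or more, as all 38 did, 2128 were lower without overlap and 1978 were lower with an unadjusted p under 0.05. The counts of the 38 rest on few libraries. Without wildtype replicate 1 edgeR called 22 of the 38 (and 2593 genes in all), and without either wildtype replicate 3 or mutant replicate 2 only 16 had an unadjusted p under 0.05. In a bulk sample, fewer cells of a type and less RNA per cell cannot be told apart.

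**Figure D1:**
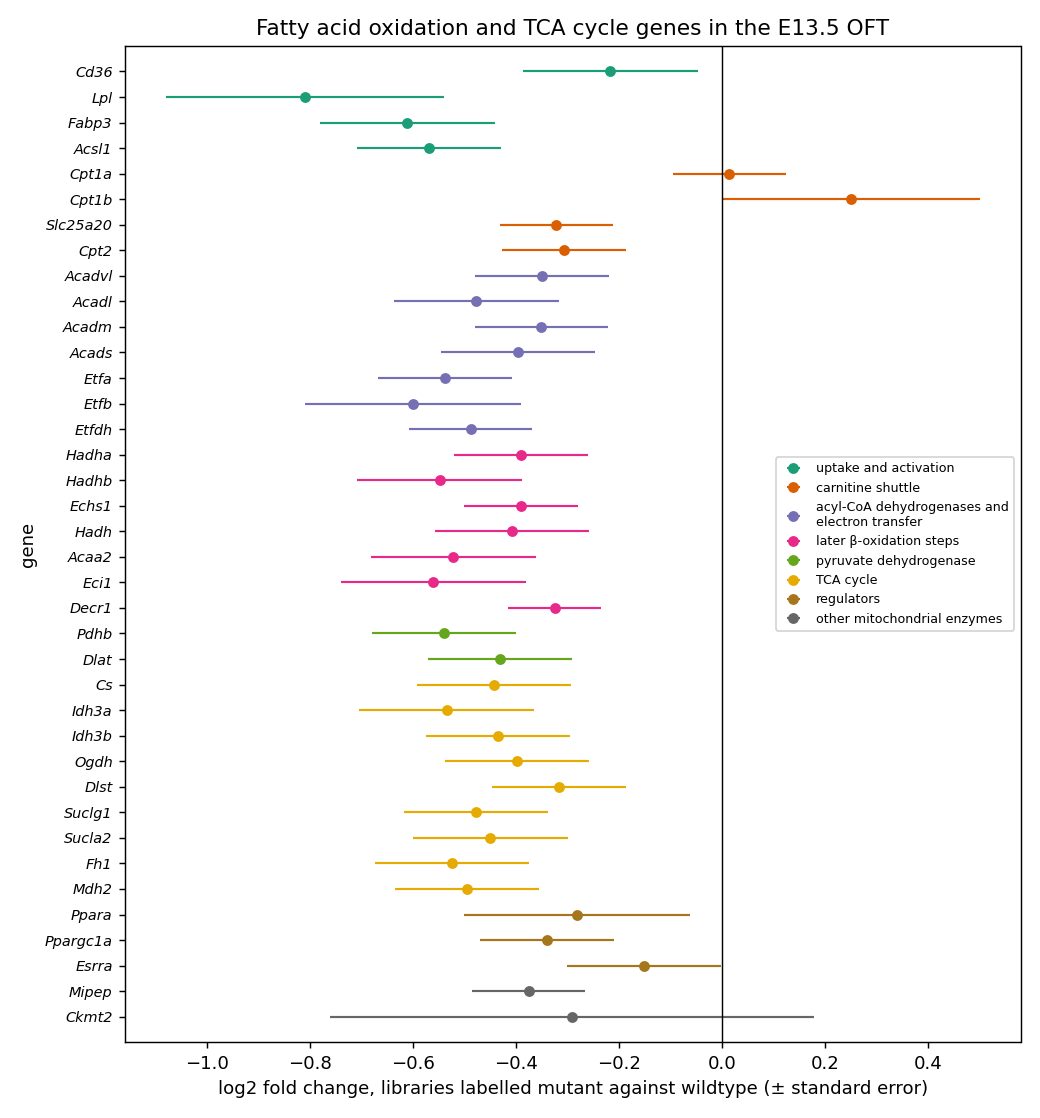
Log2 fold change (x axis) of the 38 genes (y axis), mutant label against wildtype label, with bars of 1 standard error from the edgeR fit and colours for the roles of the genes. Of the points, 36 lie below 0, with *Lpl* lowest at −0.81 and *Cpt1b* highest at 0.25.

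The libraries stood in nearly the same order for most of the genes. Wildtype replicate 3 was the highest library in 35 of the 38 genes and mutant replicate 2 the lowest in 32. Among the 16655 genes that averaged 1 CPM or more, the shares were 25.0% and 22.9%. Within the groups, wildtype replicate 1 was the lowest of its group in 32 genes and mutant replicate 3 the highest of its group in 35. Wildtype replicate 1 was above mutant replicate 3 in 21 of the 38. As the median over the 38 genes, the deviation of log2 CPM from the mean of the 6 libraries was 0.02, 0.18 and 0.45 in the libraries labelled wildtype and −0.25, −0.40 and −0.03 in those labelled mutant. Wildtype replicate 1 and mutant replicate 3 thus sat side by side near 0, with the other libraries of each group to either side.

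Levels spread far more between the genes than between the groups. Per kb of exon, *Acadl*, the long-chain acyl-CoA dehydrogenase, was the highest, with 192, 187 and 254 CPM per kb under the wildtype label and 143, 125 and 186 under the mutant label. *Cpt1b*, the muscle form of carnitine palmitoyltransferase 1, was the lowest, with 0.387, 0.429 and 0.557 CPM per kb and 0.578, 0.586 and 0.464 CPM per kb. This rank is uncertain, since 81.4% of its exon bases are shared with another annotated gene on the same strand. Mean levels over 100 CPM per kb were also seen for *Mdh2* (122), *Acaa2* (114) and *Fabp3* (105), and a mean under 2 CPM per kb for *Ckmt2* (1.89) and *Ppara* (0.82). Matrix enzymes and a carrier protein were thus at the top, with muscle isoforms and a transcription factor at the bottom.

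Of the 4 genes of uptake and activation, all had log2 fold changes below 0, with a median of −0.59. *Lpl* encodes lipoprotein lipase, which frees fatty acids from circulating lipoproteins. It had 144, 150.3 and 233 CPM under the wildtype label and 80.4, 68.9 and 152 CPM under the mutant label. Wildtype replicate 3 and mutant replicate 3 were each well above the rest of their group, and mutant replicate 3 lay among the wildtype values, so the groups overlapped. Its log2 fold change of −0.81 (standard error 0.27, unadjusted p = 0.0136) was the lowest of the 38 and had the second widest standard error. *Fabp3*, the fatty acid binding protein of heart muscle, had 77.4, 107 and 128 CPM against 68.8, 58.2 and 77.4 CPM, with wildtype replicate 1 and mutant replicate 3 level with each other. For *Fabp3* the log2 fold change was −0.61 (standard error 0.17, unadjusted p = 0.00454). *Acsl1*, which joins long-chain fatty acids to coenzyme A, had 41.4, 44.3 and 55.5 CPM against 30.8, 27.7 and 36.5 CPM. Here the groups did not overlap, and the log2 fold change was −0.57 (standard error 0.14, unadjusted p = 0.00172). *Cd36*, a fatty acid translocase that is also found on capillary endothelium, had the smallest difference of the 4 (−0.22, unadjusted p = 0.236), and mutant replicate 3 was its highest library.

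The 4 genes of the carnitine shuttle were mixed in sign. *Cpt1a* and *Cpt1b* encode isoforms of carnitine palmitoyltransferase 1, which loads fatty acids onto carnitine at the outer mitochondrial membrane. *Cpt1a*, by far the more abundant of the pair (12.1 against 0.50 CPM per kb), had 105, 85.1 and 86.6 CPM under the wildtype label and 95.4, 95.1 and 89 CPM under the mutant label. The libraries labelled mutant all lay inside the wildtype range, and the log2 fold change was 0.01 (standard error 0.11, unadjusted p = 0.893). *Cpt1b* had 1.3, 1.45 and 1.88 CPM against 1.95, 1.97 and 1.56 CPM, with overlap, and a log2 fold change of 0.25 (standard error 0.25, unadjusted p = 0.345). It shares 81.4% of its exon bases with another annotated gene on the same strand, which makes its value uncertain. The inner membrane partners were lower without overlap. *Slc25a20*, the carnitine-acylcarnitine carrier, had 52.6, 57.7 and 67 CPM against 45.7, 45.1 and 51.1 CPM (log2 fold change −0.32, standard error 0.11, unadjusted p = 0.0146). *Cpt2*, which returns the fatty acid to coenzyme A in the matrix, had 38.8, 43.5 and 50.4 CPM against 36, 32.8 and 38.4 CPM (log2 fold change −0.31, standard error 0.12, unadjusted p = 0.0237). For *Cpt2* the gap was narrow, since wildtype replicate 1 and mutant replicate 3 differed by less than the spread within either group. Whether the difference of *Cpt1a* differs from that of its partners was not tested.

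All 7 genes of the acyl-CoA dehydrogenases and electron transfer were lower, each with an unadjusted p under 0.05, and their median was −0.48. The acyl-CoA dehydrogenases open each round of β-oxidation and differ in the chain length they take. Their log2 fold changes were −0.35 for *Acadvl* (very long chain), −0.48 for *Acadl* (long chain), −0.35 for *Acadm* (medium chain) and −0.40 for *Acads* (short chain), so no order by chain length was seen. *Acadvl* shares 42.9% of its exon bases with *Dvl2* on the opposite strand, and the use of strand in counting is not stated, so its value is uncertain. The electrons then pass to the electron transfer flavoprotein, whose subunits are *Etfa* and *Etfb*, and from there to its dehydrogenase, *Etfdh*. *Etfa* had 70.0, 81.9 and 91 CPM under the wildtype label and 53.5, 48.7 and 65.1 CPM under the mutant label. No library overlapped, although wildtype replicate 1 and mutant replicate 3 came within a few CPM of each other (log2 fold change −0.54, standard error 0.13, unadjusted p = 0.00197). *Etfb* had 9.0, 12 and 16.1 CPM against 8.65, 6.72 and 9.02 CPM, a log2 fold change of −0.60 (standard error 0.21, unadjusted p = 0.0145). Wildtype replicate 1 and mutant replicate 3 were at almost the same level of *Etfb* and the groups overlapped. This gene shares 53.0% of its exon bases with another annotated gene on the same strand, and its value is uncertain. *Etfdh* had 183, 190.3 and 213 CPM against 130.4, 124 and 163 CPM, a clear separation, with a log2 fold change of −0.49 (standard error 0.12, unadjusted p = 0.00223).

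The 7 genes of the later β-oxidation steps were lower as well, with a median of −0.41, and each had an unadjusted p under 0.05. *Hadha* and *Hadhb* encode the subunits of the mitochondrial trifunctional protein, which carries out the last reactions of the cycle on long chains. *Hadhb* had 61.2, 66.9 and 89.5 CPM under the wildtype label and 46.4, 42 and 60.3 CPM under the mutant label. The groups were separated by less than 1 CPM, between wildtype replicate 1 and mutant replicate 3 (log2 fold change −0.55, standard error 0.16, unadjusted p = 0.00699). *Hadha* also did not overlap (log2 fold change −0.39), at a higher level than its partner (37 against 9.25 CPM per kb). *Eci1*, an isomerase for unsaturated fatty acids, had 79.7, 122 and 140.3 CPM against 75.8, 70.3 and 86 CPM, with a log2 fold change of −0.56 (standard error 0.18, unadjusted p = 0.00966). *Acaa2*, the thiolase that releases acetyl-CoA, had 154, 206 and 253 CPM against 142, 127 and 158 CPM, with a log2 fold change of −0.52 (standard error 0.16, unadjusted p = 0.00873). In both *Eci1* and *Acaa2*, wildtype replicate 1 lay far below the other libraries of its group and under mutant replicate 3, so the groups overlapped. The remaining genes were *Echs1* (enoyl-CoA hydratase, −0.39), *Hadh* (hydroxyacyl-CoA dehydrogenase, −0.41) and *Decr1* (dienoyl-CoA reductase, −0.33). *Decr1* had the smallest standard error of the 38 (0.09).

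Both listed genes of pyruvate dehydrogenase, the complex that commits pyruvate to acetyl-CoA, were lower without overlap. *Pdhb*, a subunit of its first enzyme, had 123, 134 and 166 CPM under the wildtype label and 92.2, 83.8 and 115 CPM under the mutant label. The log2 fold change of *Pdhb* was −0.54 (standard error 0.14, unadjusted p = 0.00348). *Dlat*, the acetyltransferase of its core, had 109, 111 and 144 CPM against 86.6, 76.6 and 106 CPM and a log2 fold change of −0.43 (standard error 0.14, unadjusted p = 0.0128). For both, the nearest libraries across the groups were again mutant replicate 3 and wildtype replicate 1.

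Each of the 9 TCA cycle genes was lower with an unadjusted p under 0.05, in a narrow range from −0.53 to −0.32 around a median of −0.45. *Idh3a*, the catalytic subunit of the NAD-dependent isocitrate dehydrogenase, had 224, 235 and 298 CPM under the wildtype label and 166, 138 and 219 CPM under the mutant label. Its groups did not overlap (log2 fold change −0.53, standard error 0.17, unadjusted p = 0.00887). *Fh1*, fumarate hydratase, had 182, 224 and 269.8 CPM against 149, 138 and 182 CPM. Mutant replicate 3 reached the level of wildtype replicate 1 and the other libraries were apart (log2 fold change −0.52, standard error 0.15, unadjusted p = 0.00581). *Mdh2*, the mitochondrial malate dehydrogenase and the most abundant of the 9 per kb, had 433, 496 and 592 CPM against 362, 315 and 402 CPM. These did not overlap (log2 fold change −0.50, standard error 0.14, unadjusted p = 0.00427). The others were *Cs* (citrate synthase, −0.44), *Idh3b* (−0.43), *Ogdh* and *Dlst* of the oxoglutarate dehydrogenase complex (−0.40 and −0.32), and *Suclg1* and *Sucla2* of succinyl-CoA ligase (−0.48 and −0.45).

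**Figure D2:**
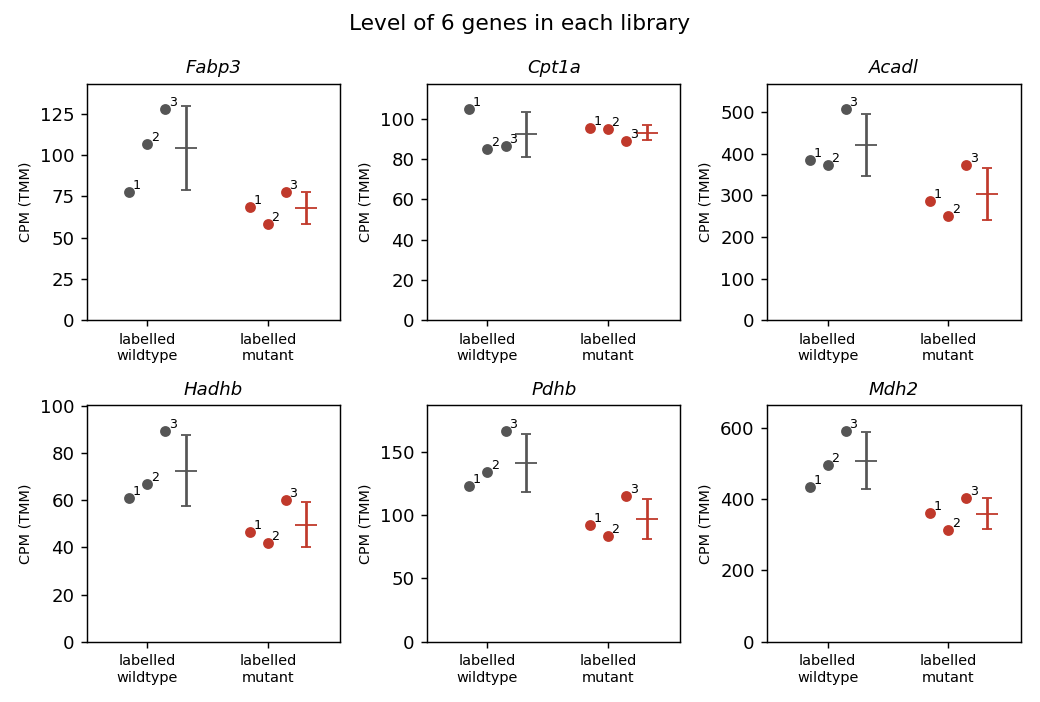
CPM (y axis, from 0) of 6 genes in each library, grouped by label on the x axis, with replicate numbers beside the points and the mean with SD (n = 3) to the right of each group. *Cpt1a* lies at 92.2 ± 11 CPM (SD, n = 3) under the wildtype label and 93.2 ± 3.59 CPM (SD, n = 3) under the mutant label, while *Mdh2* lies at 507 ± 80.0 CPM (SD, n = 3) and 359.8 ± 43.9 CPM (SD, n = 3).

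The 3 regulators were all below 0, with a median of −0.28. *Ppargc1a* encodes a coactivator of mitochondrial gene expression, *Ppara* a fatty acid receptor that binds DNA, and *Esrra* an orphan nuclear receptor that works with the coactivator. *Ppargc1a* had 77.1, 74.5 and 89.9 CPM under the wildtype label and 60.1, 55.5 and 75.2 CPM under the mutant label. Mutant replicate 3 was just above wildtype replicate 2 (log2 fold change −0.34, standard error 0.13, unadjusted p = 0.0229). *Ppara* was scarce, with 2.81, 3.52 and 4.04 CPM against 2.52, 2.59 and 3.39 CPM, and the groups overlapped (log2 fold change −0.28, standard error 0.22, unadjusted p = 0.221). *Esrra* had 34.2, 44 and 54 CPM against 40.0, 37.5 and 41.4 CPM. Its lowest library was wildtype replicate 1, all libraries labelled mutant lay inside the wildtype range (log2 fold change −0.15, standard error 0.15, unadjusted p = 0.324), and without wildtype replicate 3 its sign turned.

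The remaining pair of mitochondrial enzymes went separate ways in precision. *Mipep*, a peptidase that trims imported mitochondrial proteins, had 37.3, 39.3 and 43 CPM under the wildtype label and 30.9, 27.4 and 33.9 CPM under the mutant label, without overlap. Its log2 fold change was −0.38 (standard error 0.11, unadjusted p = 0.00565). *Ckmt2*, the sarcomeric mitochondrial creatine kinase, had 1.42, 2.89 and 5.02 CPM against 1.77, 1.47 and 4.32 CPM. Replicate 3 was the highest library under each label, wildtype replicate 1 was the lowest of all, and the log2 fold change of −0.29 (standard error 0.47, unadjusted p = 0.552) had the widest error of the 38.

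Subunits of shared enzymes were also read with those outside the group added. The 3 subunits of isocitrate dehydrogenase 3, with *Idh3g* added from outside the group, had log2 fold changes between −0.53 and −0.42. Those of succinyl-CoA ligase, with *Suclg2* added, lay between −0.66 and −0.45, and the 5 of the pyruvate dehydrogenase complex, with *Pdha1*, *Dld* and *Pdhx* added, between −0.54 and −0.37. The oxoglutarate dehydrogenase complex, with *Dld* added here too, lay between −0.49 and −0.32. All 4 subunits of succinate dehydrogenase, none of them among the 38, lay between −0.57 and −0.45. Subunits are not independent measurements of a complex, since they come from the same libraries.

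A further 86 genes of these pathways, kept as 11 lists by role, gave a mixed picture. Their median log2 fold change was −0.24, with 62 lower and 24 higher, 0 called by edgeR and 13 by DESeq2's Wald test (11 lower and 2 higher). An unadjusted p under 0.05 was seen for 32 lower and 6 higher genes. Of all 28157 genes tested, 4522 had an unadjusted p under 0.05, 2204 of them lower (7.83% of all), and DESeq2 called 2.64%. Among these lists, the other TCA cycle genes had a median of −0.49 (8 of 9 lower), and the other genes of pyruvate dehydrogenase and its control a median of −0.34 (12 of 12 lower). The 8 genes of peroxisomal β-oxidation, a parallel pathway for very long chains, had a median of 0.03, with 4 lower and 4 higher and 0 with an unadjusted p under 0.05 by edgeR (and 0 called by DESeq2). Other genes of uptake and activation had a median of 0.25, with 8 of 12 higher. Medians of other lists were −0.05 for the carnitine shuttle (7 genes), −0.12 for further acyl-CoA dehydrogenases (8), −0.35 for further β-oxidation steps (6), −0.04 for regulators (11), −0.41 for creatine kinases and transport (4) and −0.27 for mitochondrial peptidases (5). Differences between lists were not tested.

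Among the 86, the 4 lowest that averaged 1 CPM or more were *Ckm*, *Suclg2*, *Acot13* and *Sdhb*. *Ckm*, the muscle creatine kinase, had 131, 215 and 233 CPM under the wildtype label and 118, 89.3 and 134 CPM under the mutant label (log2 fold change −0.76, standard error 0.21). *Suclg2*, the GTP-specific subunit of succinyl-CoA ligase, had 62.6, 60.7 and 80.3 CPM against 40.0, 35.5 and 52.9 CPM (−0.66, standard error 0.16). *Acot13*, an acyl-CoA thioesterase, had 56.6, 68.1 and 81.2 CPM against 40.5, 34.5 and 55.4 CPM (−0.66, standard error 0.18). *Suclg2* and *Acot13* did not overlap, and *Ckm* did, through wildtype replicate 1 and mutant replicate 3. *Sdhb*, the iron-sulphur subunit of succinate dehydrogenase, had 259.5, 343 and 393 CPM against 222, 189 and 261 CPM (−0.57, standard error 0.16), again overlapping in that pair. Among the highest were *Cpt1c*, *Slc27a1* and *Angptl4*. *Cpt1c*, the isoform of carnitine palmitoyltransferase 1 known from neurons, had 11.9, 12.7 and 11.7 CPM against 20.2, 27.1 and 13.4 CPM (0.74, standard error 0.21), higher in every library labelled mutant. *Angptl4*, an inhibitor of lipoprotein lipase, had 27.1, 18.5 and 18.7 CPM against 34.3, 32.8 and 27.1 CPM (0.55, standard error 0.16) and did not overlap either, by a margin of under 1 CPM. *Slc27a1*, a fatty acid transport protein, had 22.9, 15.9 and 12.5 CPM against 31.1, 30.7 and 19.9 CPM (0.67, standard error 0.22). Wildtype replicate 1 was the highest of its group in *Slc27a1* and lay above mutant replicate 3, so the groups overlapped.

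Markers of heart muscle moved with the 38 genes, library by library. All 15 Myocardial markers had log2 fold changes below 0 (median −0.53), 12 of them with an unadjusted p under 0.05. Their median deviation from the mean of the 6 libraries was −0.01, 0.22 and 0.57 under the wildtype label and −0.25, −0.49 and −0.02 under the mutant label, close to the values of the 38 genes given above. Summed over the list, CPM was 35846, 40541 and 53197 under the wildtype label and 29564, 24708 and 35323 under the mutant label. The most abundant Myocardial marker per kb was *Actc1* (3756 CPM per kb), and each of the 15 passed 3 counts in some library. Mesenchymal markers had the extremes exchanged, lowest in wildtype replicate 3 and highest in mutant replicate 2, with 10 of 10 higher (median 0.58) and deviations of 0.31, −0.44 and −0.92 against 0.38, 0.47 and 0.10. Their summed CPM was 8499, 5787 and 4342 against 9251, 10084 and 7889, and *Col3a1* (297 CPM per kb) was the most abundant. When edgeR was given the Myocardial mean as a covariate, the median log2 fold change of the 38 was −0.11 and 1 of the 38 had an unadjusted p under 0.05. The Myocardial markers were themselves lower under the mutant label, so this fit cannot separate them from the label. Mesenchymal markers were not part of it. The part of the Myocardial and Mesenchymal markers in the differences of the 38 genes was not tested.

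**Figure D3:**
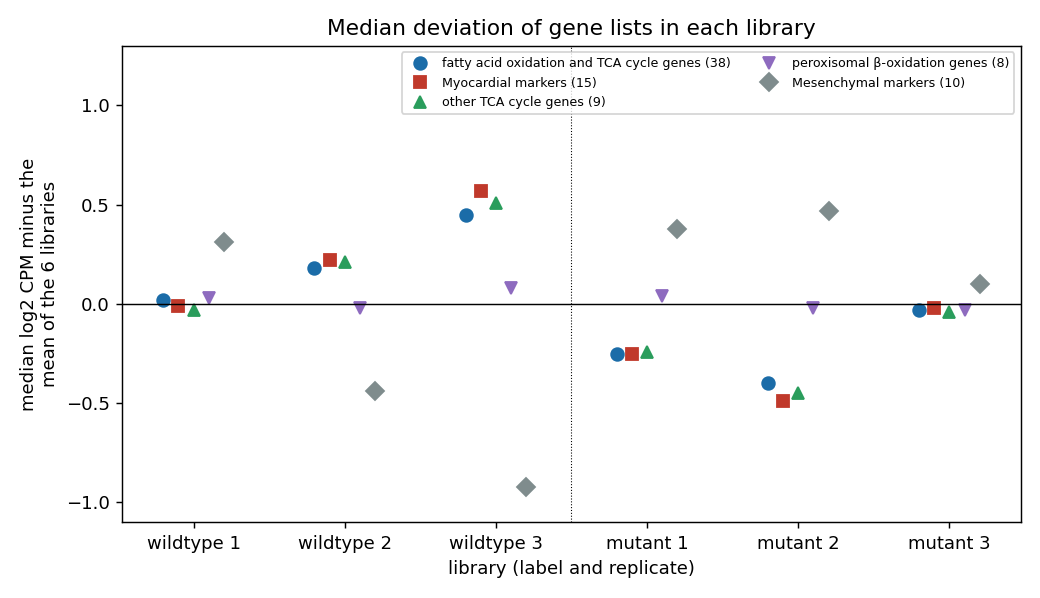
Median deviation of log2 CPM from the mean of the 6 libraries (y axis) for gene lists, in each library (x axis, a dotted line between the labels). The 38 genes, the Myocardial markers and the other TCA cycle genes are highest in wildtype replicate 3 and lowest in mutant replicate 2, the Mesenchymal markers are lowest and highest there, and the peroxisomal genes are near 0.

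Other cell types were followed with lists of the same kind. Blood markers were lower in 8 of 9 (median −0.56), with a summed CPM of 5304, 11798 and 10111 under the wildtype label and 6139, 6093 and 6232 under the mutant label, and *Hba-a2* (3305 CPM per kb) was the most abundant. Wildtype replicates 2 and 3 stood above the other libraries in this list. Endothelial markers, 9 of 10 lower (median −0.11), summed to 1096, 1393 and 1551 CPM against 1157, 1137 and 1326 CPM, led by *Cdh5* (57.2 CPM per kb). Those of vascular smooth muscle (VSMC), 5 of 10 lower (median 0.04), summed to 1758, 1982 and 2253 CPM against 1775, 1579 and 1791 CPM, led by *Acta2* (593 CPM per kb). Neither list followed the order of the 38 genes as closely as the Myocardial markers did. Epicardial markers, 6 of 8 lower (median −0.14), summed to 253, 412 and 316 CPM against 288, 338 and 275 CPM, led by *Upk3b* (28.9 CPM per kb). Macrophage markers, 4 of 7 lower (median −0.02), summed to 101, 155 and 114 CPM against 107, 124 and 128 CPM, led by *C1qb* (18.7 CPM per kb). All these lists had every gene above 3 counts in at least 1 library.

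Neural crest and glia, neurons and endoderm left few counts. Markers of neural crest and glia, 1 of 5 lower (median 0.37), summed to 36.4, 23.8 and 23.6 CPM under the wildtype label and 33.5, 40.5 and 32.5 CPM under the mutant label, led by *Erbb3* (4.01 CPM per kb). Neuronal markers, 3 of 7 lower (median 0.12), summed to 23.8, 21.5 and 10.4 CPM against 30.1, 32.8 and 22.6 CPM, led by *Tubb3* (6.45 CPM per kb). Endoderm markers, 3 of 4 lower (median −0.21), summed to 10.7, 14.3 and 11 CPM against 11.8, 11.2 and 9.18 CPM, led by *Krt8* (5.42 CPM per kb). Metabolic tissues were of more interest here, since they use these pathways. Liver markers, 7 of 7 lower (median −4.22), summed to 1.44, 98.1 and 26.6 CPM against 2.65, 5.02 and 1.17 CPM, led by *Alb* (3.25 CPM per kb), and were highest in wildtype replicates 2 and 3. Skeletal muscle markers, 5 of 6 lower (median −1.53), summed to 4.93, 13.1 and 6.47 CPM against 4.4, 5.34 and 3.42 CPM, led by *Actn3* (1.02 CPM per kb). Adipose markers, 2 of 3 lower (median −0.18), summed to 1.89, 1.78 and 2.87 CPM against 1.67, 1.87 and 2.23 CPM, led by *Cidea* (1.79 CPM per kb), with the fat cell markers *Adipoq* and *Plin1* at or under 3 counts in every library. The markers *Foxd3*, *Foxa2*, *Nkx2-1*, *Pax7*, *Myf5*, *Ucp1*, *Lep* and *Retn* were not among the genes tested. The part of these tissues in the differences of the 38 genes was not tested.

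The 38 genes are spread over 18 chromosomes, and 6 of them lie on chromosome 5 with the targeted *Nos3* (GENCODE annotation of mm10). *Hadha* (chromosome 5 from 30118304 to 30155162), *Hadhb* (chromosome 5 from 30155248 to 30184593) and *Cd36* (chromosome 5 from 17781690 to 17888801) are within 10 Mb of *Nos3*, at 5.73, 5.77 and 6.48 Mb. The alleles that surround the targeted gene were not analysed here. *Hadha* and *Hadhb* lie head to head on opposite strands, with 85 bases between their annotated ends, so the subunits of the trifunctional protein, which were lower together, share their upstream sequence. These bases are shown as the shared upstream stretch, on the plus strand of GRCm38.p6 (chr5:30155163-30155247), cut from the promoter table of RefSeq. They lie between the genes as annotated, outside exons of either, and hold 69.4% G or C.
Hadha-Hadhb: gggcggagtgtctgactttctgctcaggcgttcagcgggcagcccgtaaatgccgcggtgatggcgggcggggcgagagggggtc

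Promoter windows of RefSeq (300 bases around the start, GRCm38.p6) were found for 33 of the 38 genes, 39 windows in all. *Acaa2*, *Cpt1b*, *Decr1*, *Idh3a* and *Lpl* had no entry there. The 39 windows were rich in G and C, with a median of 60.3% against 52.7% for all 32851 windows, and with a median of 18 CG pairs against 7. The exception among the uptake genes was *Cd36*, at 43.0%, the lowest of all the windows of the group. Short motifs were searched on both strands. The binding motif of estrogen-related receptors, TCAAGGTCA, was in 0 of the 39 windows and in 0.423% of all windows. Its shorter core AAGGTCA, which it contains, was in 2 of the 39 (*Acadm* and *Ogdh*) and in 4.72% of all. The core of the motif of NRF1, GCGCATGCG, was in 5 of the 39 windows, from *Etfdh*, *Acadm*, *Ppara* and *Ogdh* (with 2 overlapping windows), and in 1.75% of all windows. The NRF1 core itself holds CG pairs, of which these windows had more, so the share of all windows is not a like background. A match is a description of letters and not evidence of binding, and a window without one says nothing of the factor. The stretches around the NRF1 core are shown because this was the motif found most often, each on the strand of its gene with the match in capitals. They are chr3:79628877-79628905 for *Etfdh* and chr3:153944784-153944812 for *Acadm* (both minus strand), and chr11:6292533-6292561 for *Ogdh* and chr15:85735735-85735763 for *Ppara* (both plus strand). In *Acadm* the capitals hold the reverse complement of the core.
Etfdh: tgcttctaggGCGCATGCGcacacgcgag
Acadm: gggagcaggaCGCATGCGCagagggcctt
Ogdh: taggtgttgtGCGCATGCGtaactcaact
Ppara: gggctcggtgGCGCATGCGcgcggactag
Among the genes with these letters, the log2 fold change of *Etfdh* was −0.49, of *Ogdh* −0.40, of *Acadm* −0.35 and of *Ppara* −0.28, and their differences were not tested.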

How the data were processed

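Bulk RNA-Seq of 6 libraries was used. The values are counts per gene, whole numbers as the authors deposited them, without normalization. Per the submitters' notes, reads from stranded, ribosome-depleted libraries were aligned to mm10 with TopHat2 2.1.0 and Bowtie2 and counted over exons. The annotation release and the use of strand in counting are not given in the sources used here. The smallest sum of a listed gene was 5.

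The software was edgeR 4.0.16, limma 3.58.1 and DESeq2 1.42.0 under R 4.3.3. Genes had to exceed 5 reads summed over the libraries, TMM factors were computed, and all 28157 remaining genes were fitted with edgeR's quasi-likelihood test, without covariates. CPM per kb used the merged exon length of GENCODE. Replicates of a group differed beyond sampling noise (chi-square per degree of freedom between 7.61 and 65.6), so each counted as 1 sample. The code was tested on simulated counts.

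All 38 genes are named. In each of 8 roles, the 3 genes with the largest absolute log2 fold change are given in every library. Named beside them are the highest and lowest per kb, and the 4 lowest and 4 highest of the 86 other pathway genes that averaged 1 CPM or more, of which 1 gene and the list that holds it are not reported here. *Cpt1a* was given in every library after its values were seen. The 38 genes and all lists were chosen with earlier results of these data known. Also tried were the Wald test of DESeq2, limma-voom, other scalings and filters, a replicate block, a GC and length correction, a Myocardial covariate and each library left out.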

Additional observations from a re-analysis of the deposited data

How the results depend on the processing

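No gene of the 38 (0) was called by limma-voom, or by edgeR with DESeq2's size factors, library size only, either other filter, the GC and length correction or the Myocardial covariate. DESeq2's Wald test called 10 of the 38 and 742 genes in all. With each library left out in turn, 0 to 22 of the 38 and 1 to 2593 genes in all were called, and 16 to 33 of the 38 had an unadjusted p under 0.05. The calls without wildtype replicate 1 made the upper ends. The median log2 fold change of the 38 ranged from −0.55 to −0.31 in these fits, that of the other pathway genes from −0.26 to −0.10, and the number below 0 from 35 to 37. With 1 library fewer, 19 to 34 of the 38 did not overlap, 19 to 33 of them lower and at most 1 higher. Over all genes 11.1 to 21.0% were lower without overlap in these settings, and 3722 to 6171 genes were higher. Such counts can only grow as libraries are dropped at fixed scaling.

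With library size only, the median of all genes moved from 0.01 to 0.11, that of the other pathway genes was −0.13, and 12 of the 38 did not overlap, all lower, against 4.45% of all genes lower and 15.2% higher. With the Myocardial covariate the medians were −0.11 for the 38 and −0.03 for the other pathway genes, and 1 of the 38 had an unadjusted p under 0.05. Among the 38, signs turned in that fit for *Cd36* (0.11), *Cpt1a* (−0.10), *Ppara* (0.06), *Esrra* (0.15) and *Ckmt2* (0.96). *Cpt1a* was at −0.07 with the GC and length correction and −0.06 with the block added, and from −0.04 to 0.12 with a library left out. Over these, *Esrra* ranged from −0.30 to 0.02 and *Ckmt2* from −0.93 to 0.23. The cause of these turns was not tested.

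The replicate block on the numbers of the titles gave 24 of the 38 and 1577 genes, and with the GC and length correction 32 and 2058. With the numbers of the descriptions, which exchange wildtype replicates 2 and 3, it gave 0 of the 38 and 83 genes. Same-numbered libraries correlated at 0.096, 0.159 and 0.420 in their deviations from the group means. For wildtype replicates 2 and 3 the library of the same number was the best match, while wildtype replicate 1 correlated best with mutant replicate 2 (0.277). Whether libraries of the same number belong together was not tested. Depth limits *Cpt1b*, *Ckmt2* and *Ppara*, at a few CPM, more than the other genes.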

Other observations

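The kinases that switch pyruvate dehydrogenase off had log2 fold changes of −0.27 for *Pdk1*, −0.25 for *Pdk2*, −0.53 for *Pdk3* and −0.48 for *Pdk4*, each with an unadjusted p under 0.05 and none called by edgeR (*Pdk4* was called by DESeq2's Wald test, adjusted p = 0.0418), while the phosphatases that switch it on, *Pdp1* (−0.02) and *Pdp2* (−0.10), were near 0, without a test of the difference. *Pdk4* did not follow the usual order of the libraries, with 56, 50.6 and 45.3 CPM under the wildtype label and 31.8, 34.3 and 43.2 CPM under the mutant label. Wildtype replicate 1 was its highest library and the groups did not overlap. The genes of these paragraphs were picked with their values known.

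Receptors of the same family as *Ppara* (−0.28, unadjusted p = 0.221) differed in sign, but the differences between them were not tested. Of these receptors, *Pparg* was also close to 0 (unadjusted p = 0.873). *Ppard* had 17.4, 19.6 and 18.6 CPM under the wildtype label and 23.4, 22.3 and 22.6 CPM under the mutant label, higher without overlap (0.29, standard error 0.10), and *Pparg* had 0.04 (2.07, 2.31 and 1.76 CPM against 2.3, 1.71 and 2.31 CPM). *Oxct1*, which activates ketone bodies for use, was lower, with 311, 311 and 377 CPM against 239, 224 and 299 CPM (−0.39), and *Idh2*, the NADP-dependent isocitrate dehydrogenase, was more abundant per kb (382) than any of the 38 genes and had a log2 fold change of −0.54.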
